A study of Mus musculus with 8 samples.

Results

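The T-box transcription factors described here are 10 genes, Tbx1, Tbx2, Tbx3, Tbx4, Tbx5, Tbx6, Tbx15, Tbx18, Tbx20 and Tbx22, chosen by name, and all 10 were found among the 24675 named genes of the array. Their expression was measured in ventral tissue, taken from under the dorsal aorta, and in dorsal tissue, taken from between the notochord and the aortic roof, of C57Bl/6 mouse embryos at embryonic day 12.5. Both tissues carry no genetic change or treatment, and both were cut by laser from cryosections of the same embryos. For each tissue there were 4 arrays of the type Affymetrix mouse Gene 2.0 ST, numbered 1 to 4 as biological replicates. The values are log2 RMA intensities, where RMA is the method that corrects background, equalises the arrays and summarises the probes of a gene. Differences are given on that log2 scale as ventral minus dorsal, and a replicate number joins the ventral and the dorsal array of that number. The series title names the niche of blood stem cells under the aorta, and the comparison sets tissue below the vessel against tissue above it.

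T-box factors share a DNA-binding domain, the T-box, first known from brachyury, and act as activators or repressors of genes that set the identity of mesoderm and its derivatives. Many act in a dose-dependent way, so that loss of a single copy alters development of the heart, limb, palate or pharyngeal arteries. Around the embryonic aorta they are known from the somites, the splanchnic mesoderm of gut and lung, the mesothelium and the urogenital mesenchyme.

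Tbx18 and Tbx1 had lower values in ventral tissue and Tbx3 had higher values there, and for these 3 of the 10 genes no ventral array overlapped any dorsal array. Over all 24675 named genes the groups did not overlap for 3.64%, with all ventral arrays higher for 1.81% and all lower for 1.84%. The differences were -1.19 (SE 0.21) for Tbx18, -1.02 (SE 0.25) for Tbx1 and 0.99 (SE 0.19) for Tbx3. None of them passed limma's test across the array, which had a threshold of 0.05 on the adjusted p (Benjamini-Hochberg). That test called 0 of 12416 genes (0%), and 0 of the T-box genes were called. A gene entered the test if 4 or more arrays showed it above their median, which 8 T-box genes did and Tbx6 and Tbx22 did not. Among the genes tested the groups did not overlap for 4.39%, with ventral higher for 2.01% and lower for 2.38%. Without the replicate block 0 T-box genes were called, against 0.0322% of all genes tested. Fitted without that filter, 0 of the 10 were called, 1 had an unadjusted p under 0.05 with a higher ventral value, against 3.26% of all named genes, and 3 with a lower one, against 2.97%. Those were Tbx3 on the one side and Tbx1, Tbx15 and Tbx18 on the other. In the fits with the filter, Tbx15 met that level only with the replicate block (unadjusted p = 0.0331 in limma, against 0.315 without it). Without the block 2 T-box genes had a lower ventral value at that level. With the block the count was also 2 when replicate number 1, 2 or 3 was left out.

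**Figure D1:**
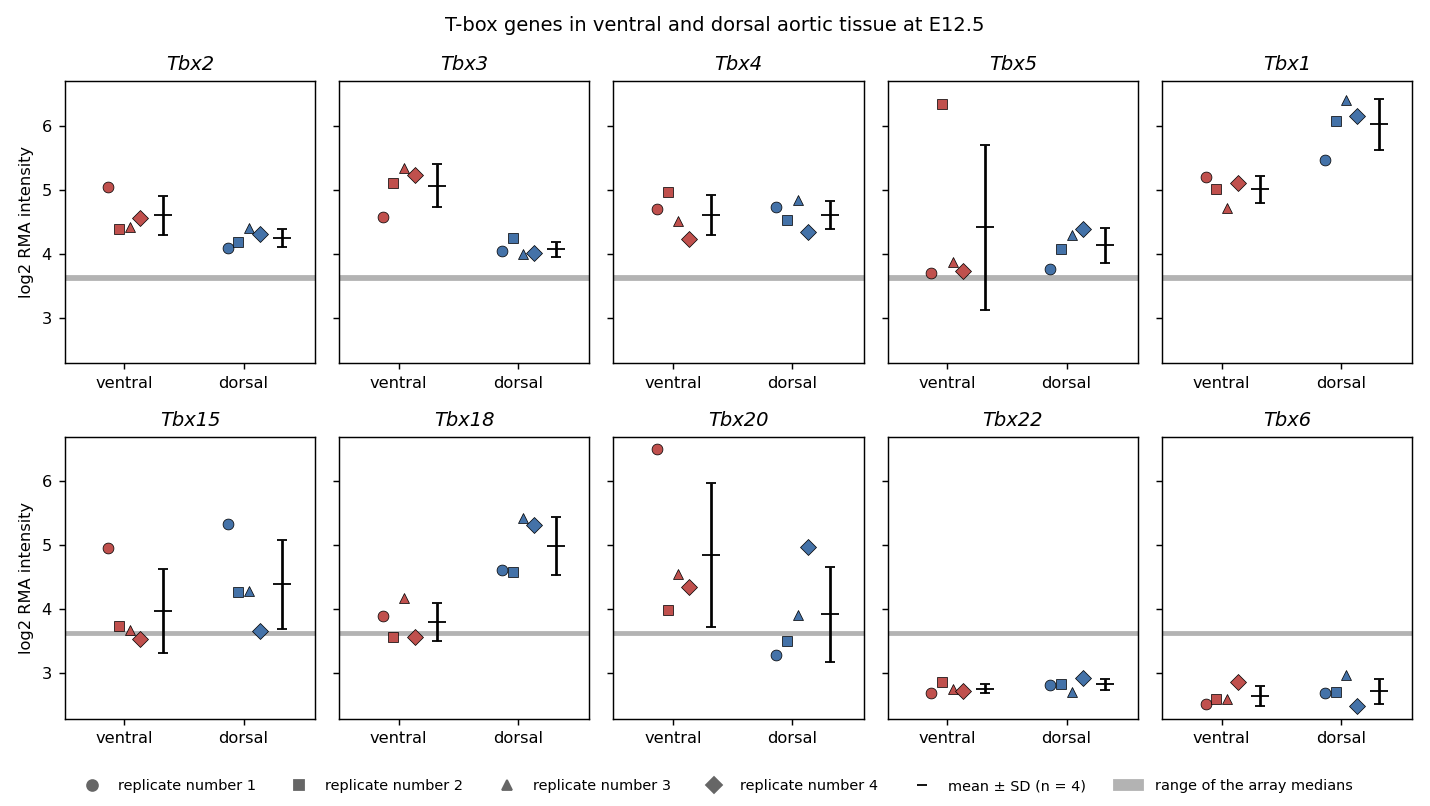
Each panel plots 1 T-box gene, with the log2 RMA intensity on the vertical axis and a symbol for each array (shape by replicate number), ventral left of dorsal, with mean ± SD (n = 4). The grey band is the range of the array medians, 3.59 to 3.65. Tbx3, Tbx1 and Tbx18 show groups that do not overlap, Tbx5 and Tbx20 each show 1 ventral array far above the others, and Tbx6 and Tbx22 lie under the band on all 8 arrays.

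The array medians ran from 3.59 to 3.65, and several arrays held genes of neighbouring tissues. Over the tested genes, arrays correlated at r = 0.907 to 0.948 within ventral tissue, 0.907 to 0.957 within dorsal tissue and 0.907 to 0.936 between them (across genes, which are not independent replicates). Of 12 sclerotome and cartilage markers, 10 were tested and all 10 had lower ventral means. Of 11 endothelial markers, 7 to 9 lay above the array median on each array, and Esam and Cldn5 did so on none. Of 9 notochord markers, 3 to 7 lay above it on each array, and Noto and Foxj1 did so on none. Red cell and liver genes were high on dorsal replicate 4, where the liver list summed to an intensity of 4277 against 145 to 147 on the other dorsal arrays. On ventral replicate 4 the liver list summed to 1338, against 137 to 171 on the other ventral arrays. The red cell list stood less apart there, at 9146 against 8181 on ventral replicate 1. Spinal cord genes summed to 2818 on dorsal replicate 1 against 154 to 196 on the other dorsal arrays. Of these 13 markers, 7 lay above the array median on dorsal replicate 1 and 8 on dorsal replicate 2. Sox1, Pax6, Olig2 and Lhx3 did so on none of the arrays. In bulk tissue of this kind, fewer cells of a type and less RNA per cell cannot be told apart. The labels do not say that a replicate number marks 1 embryo, and the p-values therefore reflect only how much these samples varied, which may be technical.

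Tbx18 (Entrez 76365) marks the anterior part of the somite and its sclerotome, and acts in the epicardium, the mesothelium and the mesenchyme around the ureter. It measured 3.90, 3.57, 4.18 and 3.57 on ventral arrays 1 to 4, against 4.62, 4.59, 5.43 and 5.32 on dorsal arrays 1 to 4. The highest ventral array lay under the lowest dorsal array, and the differences by replicate number were -0.72, -1.01, -1.25 and -1.75. Its mean was 3.81 ± 0.29 in ventral and 4.99 ± 0.45 in dorsal tissue (SD, n = 4 each), with an adjusted p of 0.201 in limma with the replicate number as a block and 0.170 in limma without it. Tbx18 lay under the array median on 2 of the 4 ventral arrays, and its change is therefore not given as a fold. By unadjusted p, Tbx18 ranked 40 of the 12416 genes tested, the lowest of the T-box genes.

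Tbx1 (Entrez 21380) acts in the pharyngeal apparatus, the cardiac outflow tract and the muscle progenitors of the head, and is also expressed in the sclerotome. Ventral arrays 1 to 4 gave 5.21, 5.01, 4.71 and 5.10, against 5.47, 6.08, 6.41 and 6.15 on dorsal arrays 1 to 4. All ventral values lay under all dorsal values, with a narrow gap in replicate number 1 (a difference of -0.26) and wider ones in numbers 2, 3 and 4 (-1.07, -1.70 and -1.05). Its mean was 5.01 ± 0.21 in ventral and 6.02 ± 0.40 in dorsal tissue (SD, n = 4 each), which is 2.02-fold lower in ventral tissue. The adjusted p was 0.311 in limma with the replicate block and 0.203 without it. With 1 replicate number left out, the difference ran from -1.27 (without number 1) to -0.79 (without number 3).

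The promoters of these 2 genes are shown because both had lower values on every ventral array than on any dorsal array. A RefSeq table of assembly GRCm38.p6, with 250 bases before and 50 after each annotated start, matched 6 of the 10 genes with 9 starts, and holds none for Tbx2, Tbx3, Tbx5 and Tbx15. Of the 2 Tbx1 starts, the one at chr16:18590622-18590921 (minus strand) is printed, and for Tbx18 the only one, at chr9:87731211-87731510 (minus strand). Capitals mark matches, on either strand, to 6 short motifs: the T-box core AGGTGT, the forkhead core GTAAACA, the GLI core GACCACC, the SOX core ACAATG, the CCAAT box and the TATA box TATAAA.
Tbx1: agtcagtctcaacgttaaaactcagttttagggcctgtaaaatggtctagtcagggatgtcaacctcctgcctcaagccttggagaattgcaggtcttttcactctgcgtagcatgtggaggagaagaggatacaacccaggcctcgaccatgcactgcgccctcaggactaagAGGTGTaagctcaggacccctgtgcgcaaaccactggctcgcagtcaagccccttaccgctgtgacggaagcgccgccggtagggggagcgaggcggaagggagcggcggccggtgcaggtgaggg
Tbx18: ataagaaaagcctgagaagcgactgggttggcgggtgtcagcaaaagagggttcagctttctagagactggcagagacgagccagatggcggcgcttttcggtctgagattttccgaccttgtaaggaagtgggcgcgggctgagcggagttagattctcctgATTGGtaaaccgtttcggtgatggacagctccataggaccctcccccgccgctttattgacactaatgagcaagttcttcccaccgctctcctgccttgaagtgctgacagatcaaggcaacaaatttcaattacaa
The Tbx1 window held 1 T-box core, at -76 to -71 from the start, a motif found in 13.7% of the 32851 promoter windows of this table. The Tbx18 window held 1 CCAAT box on the minus strand, at -87 to -83, found in 37.4% of all windows. No other of these motifs occurred in either window, and none of the 6 occurred in the other Tbx1 window or that of Tbx20. The G and C content was 58.3% in the printed Tbx1 window and 51.7% in that of Tbx18, against a median of 52.7% over all windows. A match describes letters, not binding.

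Sclerotome markers were lower in the same tissue as Tbx18 and Tbx1. The summed intensity of the 12 sclerotome and cartilage markers ran from 332 to 416 on ventral and from 836 to 1737 on dorsal arrays, without overlap, and 8 to 10 of the markers lay above the array median on ventral against 10 to 11 on dorsal arrays. Matn1, a cartilage matrix protein, was the only one above it on none of the 8 arrays. Pax9 and Pax1, factors of the ventral sclerotome, differed by -2.05 (SE 0.21) and -2.28 (SE 0.24), and neither passed the test (adjusted p = 0.0717 for both in limma). Within dorsal tissue the sums on arrays 1 to 4 were 836, 1737, 1444 and 871. Dorsal replicate 1, with the lowest sum, had the lowest dorsal Tbx1 value, whereas dorsal replicate 2, with the highest sum, had the lowest dorsal Tbx18 value, and dorsal replicate 4 had a low sum beside a Tbx18 value of 5.32. Skeletal muscle markers summed to 200 to 334 on ventral and 219 to 624 on dorsal arrays, with overlap, and Tnnc2, a fast muscle troponin, differed by -1.27 (SE 0.45). The part of sclerotome or muscle cells in the Tbx18 and Tbx1 differences was not tested.

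Tbx15 (Entrez 21384), which acts in the mesenchyme of the limb, the trunk skeleton and the dermis, varied more by replicate number than by tissue. It measured 4.95, 3.74, 3.68 and 3.53 on ventral arrays 1 to 4, against 5.34, 4.27, 4.30 and 3.66 on dorsal arrays 1 to 4. Replicate number 1 was the highest in both tissues and number 4 the lowest in both. Within each number the ventral array was the lower one, by -0.39, -0.52, -0.62 and -0.13, though the groups overlapped. With the replicate block the difference was -0.42 (SE 0.16, adjusted p = 0.549 in limma), and without the block its SE was 0.39 (adjusted p = 0.847). Dropping dorsal replicate 1 from the fit without the block left -0.099, and dropping ventral replicate 1 gave -0.74. The sum of the spinal cord markers was also highest in replicate number 1 of both tissues, at 463 on the ventral and 2818 on the dorsal array. Sox1, Pax6, Olig2 and Lhx3 among them lay above the array median on no array. The part of spinal cord cells in the Tbx15 values was not tested.

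Tbx22 (Entrez 245572), a close relative of Tbx15 and Tbx18 that acts in palate formation, was low throughout. It ranged from 2.70 to 2.87 on ventral and from 2.72 to 2.93 on dorsal arrays, under the array median on all 8. The difference was -0.065 (SE 0.099 in the fit without the filter, adjusted p = 0.956 in limma).

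Tbx3 (Entrez 21386), a repressor that acts in the heart's conduction system, the limb, the mammary placode and the mesenchyme of lung and ureter, had higher values in ventral tissue. Ventral arrays 1 to 4 gave 4.58, 5.11, 5.34 and 5.23, against 4.04, 4.24, 4.00 and 4.01 on dorsal arrays 1 to 4. Every ventral array lay above every dorsal array, and the differences by replicate number were 0.54, 0.87, 1.34 and 1.22. Its mean was 5.07 ± 0.34 in ventral and 4.07 ± 0.11 in dorsal tissue (SD, n = 4 each), a 1.99-fold higher value in ventral tissue. The adjusted p was 0.216 in limma with the replicate block and 0.159 without it. Leaving out ventral replicate 1 from the fit without the block brought the difference to 1.16 with an adjusted p of 0.0365 in limma. It was the only call of a T-box gene in any setting, and that setting called the most genes (20 of the 12416 tested). Over all settings the adjusted p of Tbx3 ran up to 0.691.

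Several marker lists stood higher in the same tissue as Tbx3. Macrophage markers, of which 11 are in the table, summed to 409 to 583 on ventral and 282 to 370 on dorsal arrays, without overlap, with 9 to 11 above the array median on ventral and 7 to 10 on dorsal arrays. Tyrobp, a myeloid adaptor protein, differed by 1.38 (SE 0.22). The smooth muscle list summed to 508 to 1573 on ventral and 284 to 515 on dorsal arrays, with overlap through ventral replicate 1, and all 8 tested genes had higher ventral means, and Actg2, the actin of visceral smooth muscle, differed by 1.99 (SE 0.32). On ventral replicate 1, the lowest ventral array for Tbx3, the smooth muscle sum was the lowest of the ventral arrays and the macrophage sum the highest. Sympathoadrenal genes ranged widely, from 221 to 2704 on ventral and from 236 to 364 on dorsal arrays, and the receptor Ret differed by 0.66 (SE 0.16). No smooth muscle or sympathoadrenal marker was under the array median on all 8 arrays. The part of these cell types in the Tbx3 difference was not tested.

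Tbx2 (Entrez 21385), the closest relative of Tbx3 and likewise a repressor, acts in the heart's atrioventricular canal, the lung mesenchyme and the limb. It measured 5.05, 4.39, 4.41 and 4.56 on ventral arrays 1 to 4, against 4.09, 4.18, 4.41 and 4.31 on dorsal arrays 1 to 4. Ventral replicate 1 stood highest, and the other ventral arrays lay at or a little above the dorsal ones. The difference was 0.35 (SE 0.20, adjusted p = 0.731 in limma) and positive in 4 of 4 replicate numbers, with 0.95 in number 1 and 0.0089 in number 3. Without replicate number 1 it was 0.15.

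Tbx4 (Entrez 21387), a factor of hindlimb, allantois and lung mesenchyme, did not separate the tissues. Ventral arrays 1 to 4 gave 4.70, 4.97, 4.51 and 4.23, against 4.73, 4.53, 4.84 and 4.35 on dorsal arrays 1 to 4. The values interleave, and the difference was -0.0079 (SE 0.19, adjusted p = 0.997 in limma), with a sign that turned when single arrays were left out.

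Tbx5 (Entrez 21388), a factor of forelimb, heart and lung mesenchyme, was high on a single array. It measured 3.70, 6.34, 3.87 and 3.73 on ventral arrays 1 to 4, against 3.77, 4.08, 4.29 and 4.39 on dorsal arrays 1 to 4. Apart from ventral replicate 2, the ventral values lay close to the array medians and 2 of the 3 lay under every dorsal value. The difference was 0.28 (SE 0.46, adjusted p = 0.926 in limma), and without replicate number 2 it was -0.38 (SE 0.19, adjusted p = 0.833). Dropping only ventral replicate 2, with no block, gave -0.36 (adjusted p = 0.775).

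Ventral replicate 2 also had high values for single genes of lung epithelium and of heart muscle. Sftpc, a surfactant protein made by lung epithelium and named after its values were seen, stood at 7.43 on that array, against 3.16 to 3.35 on the other ventral arrays and 2.92 to 3.18 on dorsal ones. Myl7, an atrial myosin light chain, was at 7.47 there and at 6.30 on ventral replicate 4, against 3.17 to 3.69 on dorsal arrays. Of the heart muscle list, 2 tested genes had higher and 3 lower ventral means. Myh7, Nppb and Ryr2 lay above the array median on no array. The heart muscle list summed to 337 on ventral replicate 2 and 252 on ventral replicate 4. The sums were 158 to 165 on the other ventral and 171 to 180 on dorsal arrays. The list of gut and lung epithelium, with 10 genes in the table, summed to 137 to 307 on ventral and to 104 to 319 on dorsal arrays. Ventral replicate 2 was the highest ventral array. The highest sum of all arrays (319) was on dorsal replicate 1, the lowest dorsal array for Tbx5 (3.77). This list shares Sox2 with the spinal cord list, which also had its highest sum (2818) on dorsal replicate 1. On that array 3 of the 10 genes lay above the array median, against 6 on ventral replicate 2. Between 3 and 6 genes of this list on ventral and 2 and 4 on dorsal arrays lay above the array median, and Foxa1 and Vil1 did so on none. Of the other T-box genes named above for lung mesenchyme, Tbx4 had its highest ventral value on replicate 2 (4.97) and Tbx2 its lowest (4.39). Tbx3 stood at 5.11 there, between its other ventral values. What lung or heart muscle cells contribute to the Tbx5 value was not tested.

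**Figure D2:**
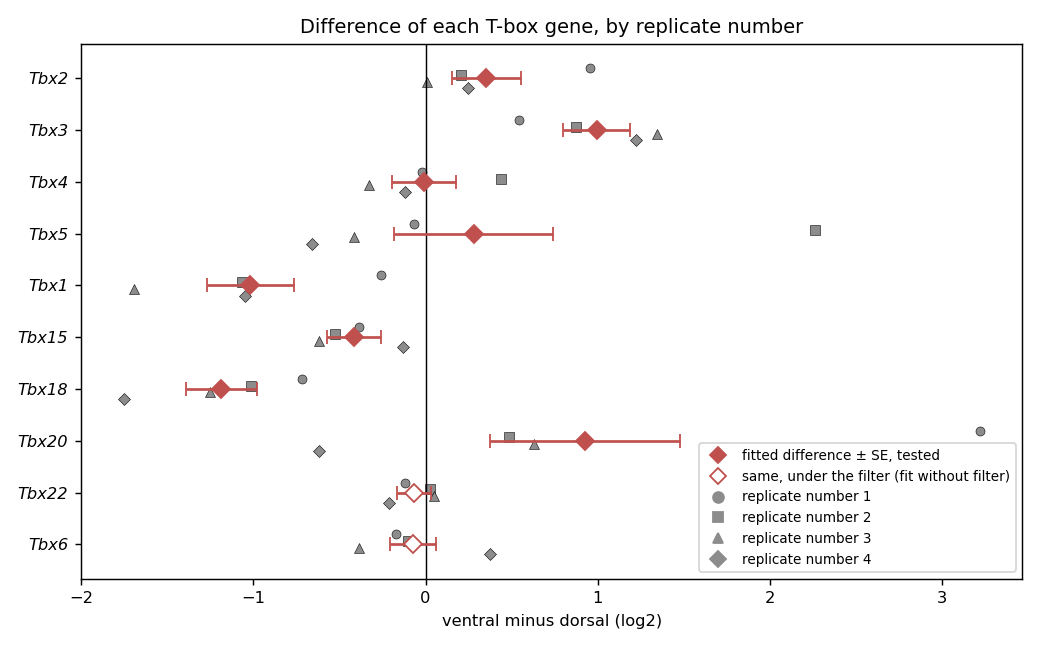
The horizontal axis gives ventral minus dorsal (log2) for each T-box gene, with grey symbols for the 4 replicate numbers and a red diamond with SE for the fitted difference (open for Tbx22 and Tbx6, fitted without the filter). Tbx3 and Tbx2 (0.0089 in number 3) lie right of 0 and Tbx1, Tbx15 and Tbx18 left of 0 in all 4 numbers. These are 5 of the 10 genes, against 14.4% of all named genes and 16.4% of those tested with 1 sign in all 4 numbers. Replicate number 2 of Tbx5 (2.26) and number 1 of Tbx20 (3.22) lie far from the other 3.

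Tbx20 (Entrez 57246), a heart factor that also acts in motor neurons of the hindbrain, likewise had 1 high ventral array. Ventral arrays 1 to 4 gave 6.50, 3.99, 4.55 and 4.35, against 3.28, 3.51, 3.92 and 4.97 on dorsal arrays 1 to 4. Ventral replicate 1 stood highest, dorsal replicate 4 was the second highest of the 8, and the groups overlapped through that dorsal array alone. The difference was 0.93 (SE 0.55, adjusted p = 0.736 in limma), 0.16 without replicate number 1 and 1.44 without number 4. On dorsal arrays 1 and 2 the gene lay under the array median.

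Sympathoadrenal genes were highest on ventral replicate 1, at a sum of 2704 against 221 to 950 on the other ventral and 236 to 364 on the dorsal arrays. Dbh, an enzyme of noradrenaline synthesis named after its values were seen, stood at 9.88 there and at 8.51 on ventral replicate 3, where Tbx20 was at 4.55. Dorsal replicate 4, the high dorsal array for Tbx20, was the one where the red cell list was highest, at 14926 against 4607 to 6783 on the other dorsal arrays. The lists of liver (4277), mesothelium (568) and notochord (331) were highest there too. The mesothelium and notochord lists share the keratins Krt8, Krt18 and Krt19, so their sums are not separate signs. The notochord genes Noto and Foxj1 lay above the array median on no array. The sum of heart muscle markers was 158 on ventral replicate 1, the lowest of the 8 arrays, and 175 on dorsal replicate 4. The heart muscle genes Myh7, Nppb and Ryr2 lay above the array median on none of the 8 arrays. The part of sympathoadrenal, red, liver, mesothelial, notochord or heart muscle cells in the Tbx20 values was not tested.

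**Figure D3:**
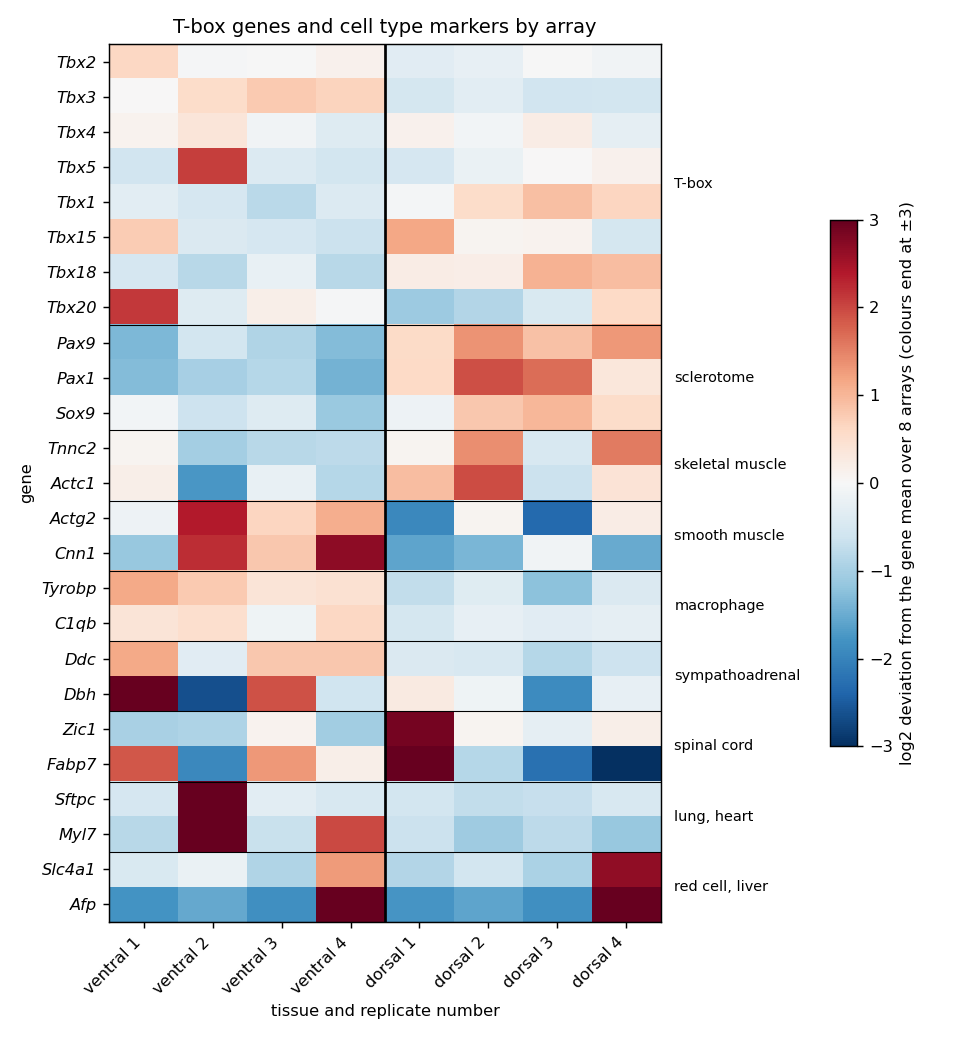
Rows are the 8 tested T-box genes and cell type markers, some of them chosen after their values were seen, columns the 4 ventral and then the 4 dorsal arrays, and colour is the log2 deviation of each value from the gene's mean over the 8 arrays, with colours ending at a fixed limit. Tbx5 is high on ventral replicate 2 together with Sftpc and Myl7, and Tbx20 on ventral replicate 1 together with Dbh. Myl7 is also high on ventral replicate 4, where Tbx5 is at 3.73, and Dbh on ventral replicate 3, where Tbx20 is at 4.55. Tbx1, Tbx18, Pax9 and Pax1 are lower on every ventral than on any dorsal array.

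Tbx6 (Entrez 21389), which drives the formation of paraxial mesoderm in the presomitic tissue of earlier embryos, lay under the array median on all 8 arrays. It measured 2.52 to 2.87 on ventral and 2.49 to 2.98 on dorsal arrays, with a difference of -0.072 (SE 0.13 in the fit without the filter, adjusted p = 0.967 in limma).

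**Figure D4:**
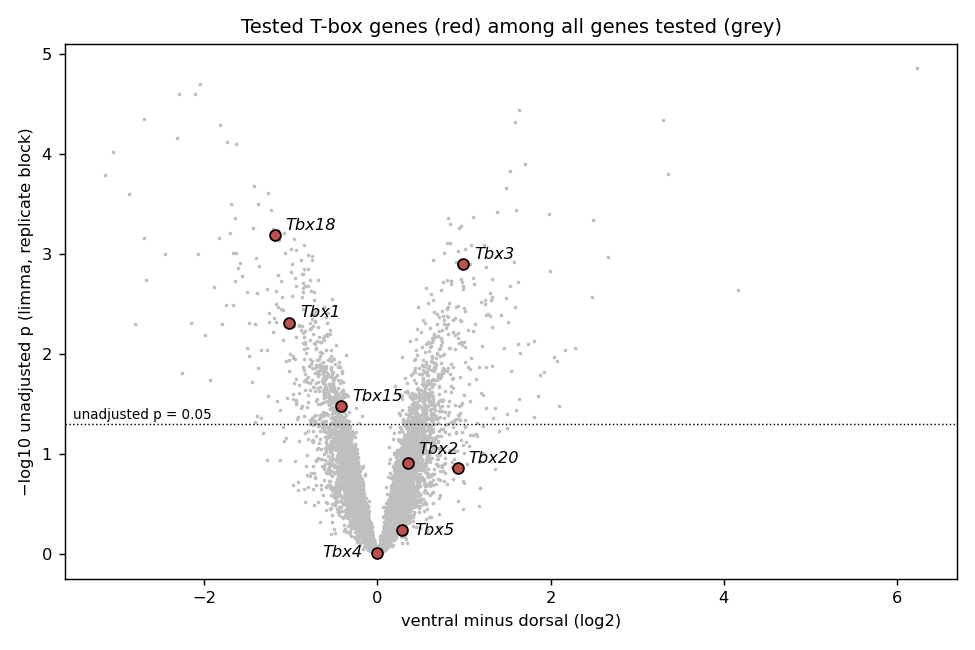
The horizontal axis is ventral minus dorsal (log2) and the vertical axis the −log10 of the unadjusted p of limma with the replicate block, with all 12416 tested genes in grey and the 8 tested T-box genes in red. Tbx18, Tbx3, Tbx1 and Tbx15 lie above the dotted line at an unadjusted p of 0.05, and Tbx20, Tbx2, Tbx5 and Tbx4 below it.

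Of the other named T-box genes of the array, 6 in number, 3 were tested and 0 were called. Brachyury had no name in the platform annotation and is not described. Mga, which joins a T-box to a domain that pairs with the protein Max, stood at 6.47 ± 0.16 in ventral and 6.68 ± 0.32 in dorsal tissue (SD, n = 4 each), with a difference of -0.21 (SE 0.21, adjusted p = 0.847 in limma). Tbx10 differed by 0.14 (SE 0.18) and Tbx21, the T-bet factor of type 1 helper T cells, by -0.11 (SE 0.13). Eomes, Tbr1 and Tbx19, known from early mesoderm, the cortex and the pituitary, lay under the array median on all 8 arrays, between 2.23 and 3.24.

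Some T-box genes are neighbours on their chromosomes, and their differences are set side by side here. In the RefSeq gene order of GRCm38.p6, used for order only, Tbx2 and Tbx4 follow each other on chromosome 11, between Bcas3 and Brip1, and Tbx3 and Tbx5 follow each other on chromosome 5, after Med13l. The differences along the first stretch were 0.020 (SE 0.24) for Bcas3, 0.35 for Tbx2, -0.0079 for Tbx4 and -0.038 (SE 0.19) for Brip1. Along the second they were -0.11 (SE 0.18) for Med13l, 0.99 for Tbx3 and 0.28 for Tbx5. Next to Tbx18 on chromosome 9 lies Cep162, with -0.43 (SE 0.30), and next to Tbx1 on chromosome 16 lie Gnb1l and Gp1bb, both under the filter, with -0.070 and -0.062.

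Genes that work with T-box factors in somites, heart and mesenchyme were described by list, and no list had a member past the test in limma with the replicate block and the filter above (0% of all genes tested). The heart list and the urogenital list each had 1 member called in some other settings, and most list medians lay close enough to 0 to change sign between settings. Over all 12416 genes, 4.08% had an unadjusted p under 0.05 with a higher and 4.18% with a lower ventral value, and the median difference was -0.0039. Of the 14 genes of somite segmentation and polarity in the table, 10 were tested, 0 were higher and 1 was lower at that level, and the median was -0.087. The lower one was Uncx, a homeobox factor of the posterior part of the somite, at 3.69 to 4.13 on ventral and 4.25 to 4.91 on dorsal arrays, which did not overlap, with a difference of -0.64 (SE 0.20). Meox1 and Meox2, somite homeobox factors, differed by 0.50 (SE 0.34) and -0.79 (SE 0.58).

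Among 18 genes known to act with Tbx1, 12 were tested, 3 were higher and 1 was lower at an unadjusted p under 0.05, with a median of -0.036. Foxc1, a forkhead factor of paraxial and arch mesenchyme, differed by -0.85 (SE 0.23). Isl1, a LIM homeobox factor of the second heart field, differed by 1.17 (SE 0.36). Ripply3, a corepressor that binds Tbx1, stood at 3.97 to 4.22 on ventral and 3.51 to 3.77 on dorsal arrays, without overlap, with a difference of 0.43 (SE 0.13).

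Among the 14 corepressors of T-box factors in the table, 12 were tested, 1 was higher (Ripply3 again) and 1 was lower, with a median of 0.045. The lower one was Tle1, a Groucho corepressor, at 5.36 to 5.75 on ventral and 6.31 to 7.30 on dorsal arrays, without overlap, with a difference of -1.15 (SE 0.20, adjusted p = 0.193 in limma). Histone deacetylase Hdac1 differed by 0.21 (SE 0.14).

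Of 16 genes that act with T-box factors in the heart, 10 were tested, 3 were higher and 0 lower at an unadjusted p under 0.05, with a median of 0.10. These were the zinc finger factor Gata6 (1.59, SE 0.18, adjusted p = 0.0717 in limma) and the Notch targets Hey2 (0.81, SE 0.20) and Hey1 (0.56, SE 0.22). For limb, lung and body wall, 9 of 11 genes were tested, with 0 higher, 2 lower and a median of -0.045. Tcf7l1, a Wnt pathway repressor, differed by -0.63 (SE 0.17), the zinc finger factor Sall1 by -0.85 (SE 0.25) and the bHLH factor Hand2 by 0.70 (SE 0.38).

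The list of urogenital and mesothelial mesenchyme, with 13 of 15 genes tested, held 4 higher and 4 lower at that level and a median of 0.0015. Its smallest p-values belonged to the visceral factor Tcf21 (3.30, SE 0.38, with a dorsal mean under the array medians), Fibin (-2.31, SE 0.28) and the Hedgehog receptor Ptch1 (-1.69, SE 0.26). In the list acting with Tbx15, 7 of 10 genes were tested, with 0 higher, 1 lower and a median of -0.018. The lower one was the bHLH factor Twist1 (-0.51, SE 0.21), and the homeobox factor Msx1 differed by 0.40 (SE 0.275) and Gli3, a Hedgehog effector, by -0.17 (SE 0.22). Genes reported as repressed by Tbx2 or Tbx3 gave 0 higher and 0 lower of 9 tested, with a median of -0.041. The Wnt antagonist Sfrp2 differed by 0.46 (SE 0.22), the cell cycle inhibitor Cdkn1a by -0.26 (SE 0.19) and Fhl2 by -0.12 (SE 0.18).

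The genes most like each tested T-box gene over the 8 arrays, by Pearson's r, were taken from 10767 protein-coding genes. These correlations describe 8 arrays that share tissue and, by number, possibly embryos, and 8 to 33 genes exceeded r = 0.9 for each T-box gene. Tbx1 ran closest to Cenpl (r = 0.969), a centromere protein, and Mbd4 (0.942), a DNA glycosylase, and Tbx18 to the dynein adaptor Bicd2 (0.948) and to Tcf7l1 (0.939). Bicd2 stood at 3.25 to 3.59 on ventral arrays, at or under the array medians (3.59 to 3.65), and at 3.83 to 4.50 on dorsal arrays. These groups did not overlap, as for 4.39% of all genes tested. Bicd2 was chosen for following Tbx18 over the same arrays, so its separation is no separate result. Tbx3 ran closest to Nnmt (0.976), a methyltransferase of nicotinamide, and Ntsr1 (0.968), a neurotensin receptor. For Tbx2 they were Smpdl3a (0.964) and Wdr45 (0.960), for Tbx4 Lig3 (0.955) and Psma4 (0.954), and for Tbx15 Ubr1 (0.966) and Ist1 (0.955). For Tbx5 they were Klf9 (0.981) and Tll1 (0.976) and for Tbx20 Hspa2 (0.981) and Capns1 (0.957), and for both T-box genes 1 ventral array stood far above the others. On ventral replicate 2, the array high for Tbx5, Tll1 measured 5.52 against 3.33 to 3.48 on the other ventral arrays.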

How the data were processed

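Expression was measured on 1-colour arrays in 4 ventral and 4 dorsal tissue samples. The deposited values are log2 intensities that the authors made with Affymetrix Expression Console and RMA, per the submitters' processing notes, with versions and genome build not given in the sources used here. Per the labels' protocols, picogram amounts of RNA were amplified before hybridisation, a step that can make replicate arrays differ more, above all where a gene's signal is low. RMA equalises the arrays (medians 3.59 to 3.65), and each difference is therefore measured against the bulk of genes.

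The table holds 25429 rows, of which the platform annotation names 24675 with 1 gene symbol each, and 754 were not used here. Symbols were updated through RefSeq of GRCm38.p6. Genes above the array median on at least 4 of the 8 arrays were tested (12416, 50.3% of those named). Ventral minus dorsal was tested two-sided with limma 3.58.1 (R 4.3.3, eBayes, trended and robust), where replicate numbers entered as fixed blocks, p-values were adjusted over all genes tested (Benjamini-Hochberg) and the threshold was 0.05. The fit was also run on simulated data with independent noise and no replicate effect, which cannot check the replicate block. Its pass condition concerned only the sign of planted differences larger than those of the T-box genes. Per the labels, the same embryos gave both tissues, but a number is not stated to mark 1 embryo. Deviations from the tissue means correlated at r = 0.022 to 0.12 between same-numbered arrays, with 2 of 4 over 0.1, and at -0.13 to 0.10 between others.

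The genes and lists were chosen with earlier results of these data known. Named by rule were the T-box genes, the 3 genes of each pathway list with the smallest p, and for each tested T-box gene the 2 genes with the highest r. The rule also gave the 2 genes with the smallest p of each described marker list and the chromosomal neighbours, of which only some are named here. Summed intensities of marker lists are sums of unlogged values. No scan date was used, and the number of arrays limits the precision.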

Additional observations from a re-analysis of the deposited data

Results flagged for a closer look

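Within groups of 4 arrays, 1 array stood far from the other 3 by Dixon's ratio at its 95% critical value in 14 of the 108 groups checked, where chance gives about 1 in 20 independent groups. That rate is no yardstick here, since Wdr45, Klf9, Tll1, Ubr1 and Hspa2 were named for following Tbx2, Tbx5, Tbx15 or Tbx20 over the same 8 arrays. Of the T-box genes described, Tbx5 was at 6.34 on ventral replicate 2 against 3.70 to 3.87 on the other ventral arrays. Tbx15 was at 4.95 on ventral replicate 1 against 3.53 to 3.74. Tbx3 was at 4.24 on dorsal replicate 2 against 4.00 to 4.04, a small gap in a tight group. Of other T-box genes, Tbr1 was at 2.86 on dorsal replicate 4 and Tbx19 at 2.59 on dorsal replicate 1, both under the array medians. Ventral replicate 1 stood apart for Uncx (4.13), Msx1 (6.86), Wdr45 (5.41) and Ubr1 (5.21), all above the other ventral arrays. Klf9 (4.80) and Tll1 (5.52) stood apart on ventral replicate 2, the array high for Tbx5. Fhl2 was at 4.69 on ventral replicate 3, Foxc1 at 5.57 on dorsal replicate 1 and Hspa2 at 4.29 on dorsal replicate 4.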

How the results depend on the processing

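For 7 of the 8 tested T-box genes no call changed over the settings in which they were fitted. Tbx3 alone was called once, at 1.16 (adjusted p = 0.0365), without ventral replicate 1 and with no replicate block, which makes 1 T-box gene called against 0 in the other settings. The fit with no replicate block called 0 T-box genes, and 4 genes over the array against 0 with the block. With a random replicate block that count was 4, with a filter for means above the 75th percentile 10, and with 1 array or replicate number left out 0 to 20, of which 20 without ventral replicate 1. That stricter filter kept Tbx1 alone of the 10 (adjusted p = 0.241). Tbx1 ran from -1.27 to -0.79, Tbx18 from -1.34 to -0.996, Tbx3 from 0.88 to 1.16, Tbx2 from 0.15 to 0.47, Tbx15 from -0.74 to -0.099 and Tbx20 from 0.16 to 1.44 over all settings, with no change of sign. Tbx4, at -0.0079, ran from -0.16 to 0.12 with arrays left out and turned positive in 6 of these settings, at 0.099 and 0.029 without replicate numbers 3 and 4, and with no block at 0.024 and 0.12 without ventral replicates 3 and 4 and at 0.031 and 0.067 without dorsal replicates 1 and 3. Tbx5 ran from -0.38 to 0.59 and turned to -0.38 without replicate number 2 and to -0.36 without ventral replicate 2 and no block. At an unadjusted p under 0.05 the T-box genes numbered 0 to 2 higher and 1 to 3 lower, and Tbx15 was lost with no replicate block (2 lower). The heart list had 1 call under the stricter filter and without ventral replicate 1 with no block, and the urogenital list had 1 in both of these and without replicate number 1. The stricter filter moved the median of the limb, lung and body wall list to 0.35, of the Tbx2 and Tbx3 targets to 0.14 and of the other T-box genes to -0.21. The median of the Tbx15 list ran from -0.23 to 0.18, of the Tbx1 list from -0.14 to 0.085, of the corepressors from -0.055 to 0.17 and of the urogenital list from -0.14 to 0.17, while those of the heart list and the somite list kept their sign. The causes were not tested. Low signal limits Tbx6 and Tbx22, under the array median on all 8 arrays, and Tbx18 in ventral and Tbx20 in dorsal tissue, each under it on 2 of 4 arrays.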
